A study of Capra hircus with 198 samples.

Results

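The pineal gland of dry goats was compared with a piece of the same animals' brain, the rostral colliculus of the midbrain roof. The comparison holds 6 of the series' 198 libraries: 3 pineal gland libraries and 3 rostral colliculus libraries, 1 of each from the dry goats 54, 64 and 73. Tissue, state and goat were taken from the labels. The series holds bulk total RNA libraries of 33 tissues from 6 Murciano-Granadina goats, 3 in lactation and 3 dry, each giving a single library for every tissue. Both groups compared here are therefore from dry goats, and the labels name no treatment, genotype or age. Each library holds the RNA of all cell types of a tissue piece. The labels give no time of day, although melatonin synthesis follows the night. The 3 pineal gland libraries of the lactating goats 2, 3 and 6 were left out because their tissue identity is in doubt: TPH1, the gland's marker, stood at 0, 0 and 0.419 CPM there. CPM is a count scaled by the total count of its library.

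The pineal gland is an endocrine gland on the roof of the forebrain. Its main cell, the pinealocyte, turns tryptophan into serotonin and then melatonin, the hormone that signals the length of the night and times seasonal breeding in goats. Pinealocytes share their developmental origin with retinal photoreceptors and keep many photoreceptor genes, although the mammalian gland is not itself light-sensitive. At night sympathetic nerves release noradrenaline onto the gland, and beta-adrenergic receptors raise cyclic AMP, which drives melatonin synthesis. The rostral colliculus, by contrast, is layered brain tissue with excitatory and inhibitory neurons, myelin and glia, and it receives input from the retina.

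The library labels were first set against the marker of the gland. TPH1, tryptophan hydroxylase and the first enzyme of the melatonin pathway, was measured at 125, 57.1 and 100.1 CPM in the pineal libraries of goats 54, 64 and 73 and 0, 0.797 and 0.604 CPM in the colliculus. All 3 pineal libraries lay far above all 3 colliculus libraries (log2 fold change 7.31 ± 0.48 SE). TPH1 also served in choosing which pineal libraries were kept, so this difference describes them and tests nothing further. Over the 33 dry tissues the pineal mean of 93.9 ± 34.1 CPM (SD, n = 3) was followed by dry liver at 19.3 ± 5.33 CPM (n = 3), and those 2 groups did not overlap, since the highest liver library stood at 25.0 CPM. Lactating liver came next at 6.17 ± 2.74 CPM (n = 3). Of the 195 libraries other than the dry pineal ones, 116 held no TPH1 count. Each dry pineal library also had its highest rank correlation over all features with the mean pineal profile of the other goats (Spearman correlation 0.911 to 0.920), ahead of the hypothalamus (0.880 to 0.891). The 3 lactation pineal libraries were closest to the hypothalamus or the rhinencephalon instead. The dry pineal libraries were also closest to the pineal gland when the means were taken over dry goats alone. All 3 colliculus libraries were closest to the colliculus when means were taken over all goats, and the one of goat 73 was closest to the bridge of the brainstem when they were taken over dry goats.

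Total counts ran from 4.03 to 4.22 M in the pineal libraries and from 4.80 to 5.02 M in the colliculus libraries, so that 3 counts corresponded to 0.598 to 0.745 CPM. Of 18776 features tested, 3941 (21%) passed an adjusted p of 0.05, 2012 of them higher (10.7%) and 1929 lower (10.3%) in the pineal gland. Among 9672 protein-coding genes, 959 were higher (9.92%) and 973 lower (10.1%). All adjusted p values are Benjamini-Hochberg values of edgeR's quasi-likelihood test, two-sided. The CPM values use library totals, while the tests use a scaling (TMM) that lowered the pineal gland by 0.25 on the log2 scale relative to totals. Changes are given on the TMM scale. The same pineal libraries were also tested against the mean of 7 other dry brain regions (bridge, cerebellar hemisphere, frontal neocortex, hippocampus, hypothalamus, medulla oblongata and rhinencephalon, 21 libraries). There, 2949 of 23665 features were higher (12.5%) and 2541 lower (10.7%). Both comparisons share the pineal libraries, so the second only shows whether a difference is also one from other brain tissue.

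Of the melatonin synthesis list, TPH1, DDC, ASMT, SLC18A2 and 1 of 2 features for AANAT were higher in the pineal gland. Of 13 genes on the list, 11 are in the table, as 12 features since AANAT has 2, and 10 features were tested. Of these 10, 5 were higher, beside 10.7% of all features, and none was lower. The 5 include TPH1, which served in choosing the libraries. A member with few counts in the colliculus could pass the filter on low counts only through its pineal counts, so this list and the 3 that follow are described by their tested members alone. The median log2 fold change of the 10 was 0.99, beside -0.02 over all features tested. ASMT, which makes the last step by methylating N-acetylserotonin, stood at 19.7, 8.44 and 11.1 CPM in the pineal libraries and at 0 in all 3 colliculus libraries. It was at least 64.5-fold higher, taking 3 counts over the colliculus group as the floor (adjusted p = 4.3e-05). In the 21 other brain libraries ASMT did not exceed 0.723 CPM. DDC, the decarboxylase that makes serotonin, was at 14.7, 7.20 and 14.2 CPM against 3.13, 3.39 and 0.604 CPM and was higher by a log2 fold change of 2.08 ± 0.55 SE (adjusted p = 0.015). The DDC call was lost without the pineal library of goat 54 or of goat 73 (adjusted p = 0.061). The dry adrenal cortex had more DDC than the pineal gland, 37.4 ± 8.85 CPM (SD, n = 3). SLC18A2, the vesicular monoamine transporter, was at 590.2, 508 and 472 CPM against 262, 183 and 255 CPM, with no overlap between the groups (log2 fold change 0.92 ± 0.13 SE, adjusted p = 0.00018).

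AANAT, the acetyltransferase whose activity rises at night, is the name of 2 adjacent genes in RefSeq and of 2 features in the table, AANAT and AANAT_1. AANAT_1 was measured at 7.83, 8.69 and 18.7 CPM in the pineal libraries of goats 54, 64 and 73 and 0.209, 0 and 0 CPM in the colliculus, where 1 count was found, and no pineal library overlapped the colliculus (log2 fold change 6.73 ± 0.85 SE, adjusted p = 5.2e-05). Over the groups the ratio of CPM was 174 (95% exact interval 30.8 to 6934, for counting error only). No other library of the series reached the lowest pineal value of AANAT_1, and against the 7 other brain regions it was higher by 7.80 (adjusted p = 9.7e-08). In the fit over all 99 dry libraries the call against the colliculus was missed (log2 fold change 6.71, adjusted p = 0.052), and DESeq2 did not call the difference from the 7 regions (adjusted p = 0.22). The feature named AANAT stood at 1.42, 0 and 0 CPM in the pineal gland and 0 in the colliculus and was not tested. Which of the 2 genes each feature stands for is not given, and copies of a gene can share reads. Summed over both features the pineal libraries stood at 9.25, 8.69 and 18.7 CPM.

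GCH1, which opens the synthesis of the tetrahydrobiopterin cofactor of TPH1, was at 13.3, 9.93 and 13.8 CPM against 5.21, 6.37 and 3.22 CPM. The groups did not overlap, but the difference missed the threshold (log2 fold change 1.06, adjusted p = 0.069). Against the 7 other brain regions it was higher (1.44, adjusted p = 0.0039). The other genes of that cofactor, PTS, SPR, QDPR and PCBD1, stood between 0.474 and 4.03 CPM in every pineal library, and none was called. The serotonin vesicle transporter of chromaffin cells, SLC18A1, stood at 1.42, 0.993 and 0.237 CPM and was not tested.

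Phototransduction genes were higher in the pineal gland from the cyclase activators to the arrestins, while opsins were not. Of 36 measured members, 23 passed the filter on low counts, 13 were higher and none was lower, with a median log2 fold change of 2.25 among those 23. GRK7, PDE6H, CNGA1, OPN4 and OPN5 had no count in any dry pineal library. GUCA1B, a calcium-sensing activator of photoreceptor guanylate cyclase, was measured at 686, 419.9 and 519 CPM in the pineal libraries of goats 54, 64 and 73 and 5.21, 1.59 and 1.41 CPM in the colliculus (log2 fold change 7.38 ± 0.33 SE, adjusted p = 2.6e-09). It did not exceed 6.77 CPM in the 21 libraries of the 7 other brain regions. Its relative GUCA1A, which lies next to it in the RefSeq annotation, was at 6.88, 5.96 and 13 CPM against 0, 0.199 and 0 CPM (log2 fold change 6.29 ± 0.90 SE, adjusted p = 0.00016).

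The proteins that stop the light response were among the called genes. SAG, the rod arrestin, stood at 32.5, 30.0 and 35.6 CPM against 0.209, 0.598 and 0.805 CPM, and none of the 21 other brain libraries passed 1.32 CPM (log2 fold change 5.60 ± 0.40 SE, adjusted p = 2.6e-07). ARR3, the cone arrestin, was at 17.3, 9.43 and 14.9 CPM against 1.67, 1.39 and 4.23 CPM, a log2 fold change of 2.25. The dry adenohypophysis stood above the pineal gland for ARR3, at 22.1 ± 2.25 CPM against 13.9 ± 4.05 CPM (SD, n = 3 each). RGS9, which speeds the shut-off of transducin, was at 8.06, 9.43 and 7.59 CPM against 1.04, 1.20 and 0.604 CPM (log2 fold change 2.85). RCVRN, the calcium sensor recoverin, stood at 5.69, 3.23 and 3.80 CPM against 0 in all colliculus libraries, at least 20.9-fold higher (adjusted p = 0.0012). PDC, phosducin, which binds the transducin beta and gamma subunits, was at 31.3, 20.6 and 32.3 CPM against 1.46, 2.19 and 2.01 CPM (log2 fold change 3.62 ± 0.36 SE, adjusted p = 5.1e-06).

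The transducin subunits themselves differed in part. GNB3, the cone beta subunit, was at 10.2, 15.9 and 12.3 CPM against 0.417, 1.20 and 0.604 CPM (log2 fold change 3.80 ± 0.52 SE, adjusted p = 0.00012). GNGT1, the rod gamma subunit, stood at 3.32, 7.69 and 2.85 CPM against 0 in the colliculus, at least 22.8-fold higher (adjusted p = 0.0014). GNB1, a beta subunit used by many cells, was at 28.9, 40.0 and 48.4 CPM against 17.7, 12.6 and 15.9 CPM, a log2 fold change of 1.09. GNGT2, the cone gamma subunit, was higher against the 7 other regions (1.85, adjusted p = 0.0064) and missed the threshold against the colliculus (1.82, adjusted p = 0.054). GNAT2, the cone alpha subunit, was at 529.9, 504 and 429.6 CPM against 407, 373 and 395 CPM, and no difference was called (adjusted p = 0.74). GNAT2 overlaps 3 other annotated genes, so its counts are uncertain. The rod alpha subunit GNAT1 was at 1.90, 1.74 and 2.61 CPM in the pineal gland and was not tested.

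Parts of the cone channel and the phosphodiesterase followed. CNGB3, the beta subunit of the cone cation channel, was at 25.4, 17.4 and 26.6 CPM against 0, 1.99 and 0 CPM (log2 fold change 4.78 ± 0.73 SE, adjusted p = 0.00029). Its alpha subunit CNGA3 was at 3.08, 4.72 and 8.30 CPM against 0, 1.20 and 0 CPM, a log2 fold change of 3.38 (adjusted p = 0.024), and the call was lost without the pineal library of goat 64 or 73 or the colliculus library of goat 54 or 73 (adjusted p = 0.059 to 0.14). PDE6B, a rod phosphodiesterase subunit, was at 8.54, 6.70 and 18.0 CPM against 1.88, 1.59 and 2.01 CPM (log2 fold change 2.34), and its call was lost without the pineal library of goat 73 (adjusted p = 0.051). The other phosphodiesterase genes tested, PDE6A and PDE6C, were not called (adjusted p = 0.80 and 0.21). GUCY2D, the guanylate cyclase that GUCA1A and GUCA1B act on, was at 7.35, 9.43 and 5.69 CPM against 1.67, 1.79 and 3.42 CPM. It missed the threshold against the colliculus (1.44, adjusted p = 0.059) and was higher than in the 7 other regions (3.59, adjusted p = 6.9e-05).

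No gene of an opsin, the protein that catches the light, was called. The short-wave cone opsin OPN1SW was at 1.42, 0.993 and 2.61 CPM in the pineal gland and was not tested. OPN3, an opsin of many tissues, was at 8.06, 4.22 and 7.12 CPM against 4.59, 2.39 and 3.02 CPM, with no difference called (adjusted p = 0.35).

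Genes of the photoreceptor outer segment and of retinoid handling were higher in 9 of 14 tested members and lower in none, out of 27 on the list. ABCA4, which moves retinal derivatives across disc membranes, was at 42.0, 29.5 and 56.5 CPM against 0.417, 1.20 and 0 CPM (log2 fold change 5.98 ± 0.53 SE, adjusted p = 1.9e-06). RP1, a microtubule protein of the outer segment, was at 61.0, 27.8 and 52.4 CPM against 1.04, 0.797 and 0 CPM (log2 fold change 5.96 ± 0.53 SE, adjusted p = 1.8e-06). No colliculus library came near the pineal values of either gene. RDH12, a retinol dehydrogenase, stood at 22.1, 13.2 and 42.5 CPM against 0.209, 0.996 and 0 CPM (log2 fold change 5.66 ± 0.70 SE, adjusted p = 4.1e-05). TULP1, which carries proteins into the outer segment, stood at 16.8, 11.4 and 22.3 CPM against 0, 0.199 and 1.21 CPM (log2 fold change 4.83 ± 0.68 SE, adjusted p = 0.00013). STRA6, the receptor for retinol binding protein, was at 23.2, 13.9 and 19.7 CPM against 0.209, 1.79 and 0.403 CPM, a log2 fold change of 4.25 (adjusted p = 9.7e-05). CDHR1, a photoreceptor cadherin, and UNC119, which binds transducin, were also higher, by log2 fold changes of 4.41 and 2.81. PRPH2, a rim protein of the discs, was at 8.78, 7.69 and 8.30 CPM against 0, 1.99 and 0 CPM. Its call (log2 fold change 3.29) was lost without the pineal library of goat 54 or 73 or the colliculus library of goat 54 (adjusted p = 0.055 to 0.058). PCDH15, a cadherin of sensory cells that also marks oligodendrocyte precursors, was higher by 1.93, and that call was lost without the pineal library of goat 54 (adjusted p = 0.061). The visual cycle enzymes of the retinal pigment epithelium, RPE65, LRAT and RLBP1, had too few counts to be tested.

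Transcription factors of the pineal gland and of photoreceptors were higher in 6 of the 9 members tested, and none was lower. The other 15 of 24 did not pass the filter. CRX, the cone-rod homeobox factor that drives pineal and photoreceptor genes, stood at 4.51, 3.47 and 6.88 CPM against 0 in every colliculus library. It was at least 24.4-fold higher (adjusted p = 0.00083) and did not exceed 1.21 CPM in the other brain libraries. NEUROD1, a proneural factor of photoreceptors and endocrine cells, stood at 12.6, 9.43 and 18.0 CPM against 0, at least 65.7-fold higher (adjusted p = 2.6e-05). NEUROD1 was not limited to the pineal gland, since the dry cerebellar hemisphere stood at 23.0 ± 2.51 CPM (SD, n = 3). BSX, a brain homeobox factor, was at 2.37, 3.97 and 4.74 CPM against 0, at least 18.2-fold higher (adjusted p = 0.0018).

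A LIM homeobox gene and a neurogenin had values far above those of all other brain libraries. ISL2 was measured at 149, 108 and 122 CPM in the pineal libraries of goats 54, 64 and 73 and 0, 0.598 and 0 CPM in the colliculus (log2 fold change 8.86 ± 0.44 SE, adjusted p = 5.9e-09), and its highest value in the 21 other brain libraries was 0.216 CPM. NEUROG1, a factor that starts neuron formation in the embryo, was measured at 90.4, 124 and 104 CPM in the pineal libraries of goats 54, 64 and 73 and 0, 0.598 and 1.21 CPM in the colliculus (log2 fold change 7.13 ± 0.40 SE, adjusted p = 2.1e-08). No library of the 7 other regions passed 5.34 CPM. LHX4 was at 9.73, 8.93 and 14.7 CPM against 2.50, 1.59 and 2.82 CPM (log2 fold change 2.01, adjusted p = 0.0045). OTX2, which acts upstream of CRX, was at 8.30, 7.45 and 10.7 CPM against 3.13, 4.38 and 2.21 CPM. Its groups did not overlap, but the difference from the colliculus was not called (1.18, adjusted p = 0.080), while that from the 7 other regions was (3.84, adjusted p = 1.2e-05). NEUROD4 (2.13, 2.73 and 4.98 CPM), NRL (2.85, 1.24 and 3.08 CPM) and PAX6 (1.90, 1.49 and 0.949 CPM) did not pass the filter. PRDM1, a factor that divides photoreceptors from bipolar cells, was the member called lower with the goat as a block (log2 fold change -1.27, adjusted p = 0.043), though not without it (-1.23, adjusted p = 0.060).

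**Figure D1:**
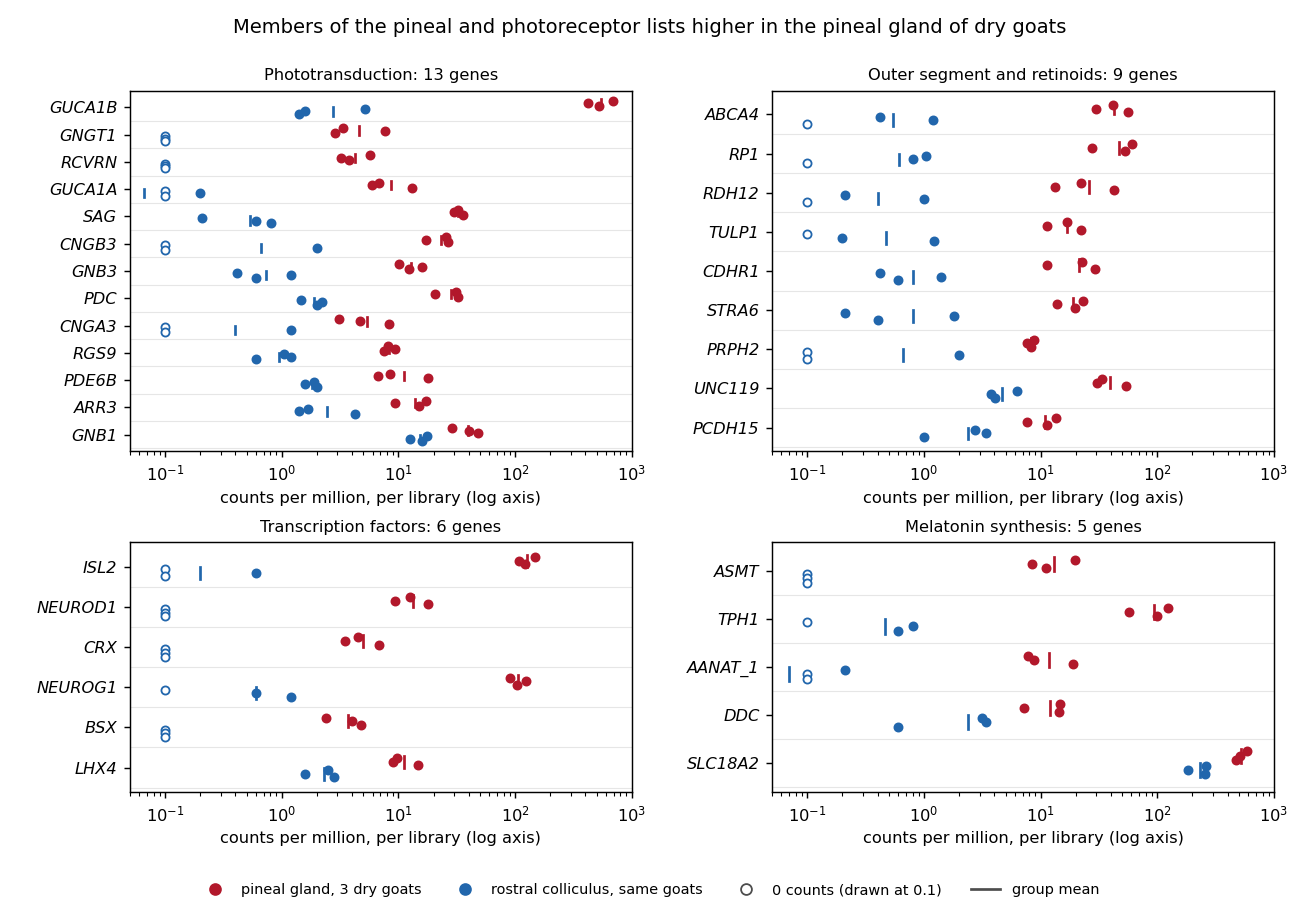
CPM in each library (log axis) for the 33 members of the melatonin, phototransduction, outer segment and transcription factor lists that were higher in the pineal gland, with 1 point per goat and tissue, a bar at each group mean and libraries without counts drawn open at 0.1. In every one of the 33 the 3 pineal points lie to the right of the 3 colliculus points. Levels of different genes are not comparable, since CPM is not divided by length.

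Over these 4 lists together, 99 features were measured, 56 were tested and 33 were higher, TPH1 among them. All 33 were without overlap between the groups, which a call at 3 against 3 libraries nearly implies. Of the tested members, called or not, 6 of 10, 17 of 23, 11 of 14 and 7 of 9 were higher without overlap. In the last list 1 member was lower without overlap. Over all features tested, 18.9% were higher and 17.9% lower without overlap. The members include TPH1, which served in choosing the libraries. In the 4 lists 1, 2, 0 and 3 tested members had no colliculus count and passed the filter through their pineal counts. The shares of the lists are therefore a description and no test. The 33 were also higher than in the 7 other brain regions, and 30 of them lay in each pineal library above all 21 libraries of those regions. For the same count of 30 the pineal gland had the highest mean of the 33 dry tissues, and the exceptions to both were NEUROD1, DDC and ARR3. The 33 were chosen as higher in these same pineal libraries, and neither share was counted over all features. Both counts of 30 therefore describe these genes and do not set their lists apart from other called features. The calls of CNGA3, DDC, PCDH15, PDE6B and PRPH2, 5 of the 33, were lost when 1 library was left out. DESeq2 called 5, 14, 8 and 6 members of the 4 lists higher and none lower. At an unadjusted p under 0.05 in edgeR, PRDM1 was the 1 member lower. In a fit that takes the spread from all 99 dry libraries, fewer members of each list were called. There, 3 melatonin, 8 phototransduction, 5 outer segment and 4 transcription factor features were higher, in place of 5, 13, 9 and 6.

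The receptor that receives the nightly signal was higher in the gland, while the list around it was mixed. Of 17 tested genes of adrenergic and cyclic AMP signalling, 3 were higher and 5 lower (median -0.58), beside 10.7% and 10.3% of all features. ADRB1, the beta-1 adrenergic receptor, was measured at 126, 128 and 137 CPM in the pineal libraries of goats 54, 64 and 73 and 1.25, 1.79 and 0 CPM in the colliculus (log2 fold change 6.71 ± 0.40 SE, adjusted p = 3.3e-08). It did not pass 5.34 CPM in the other brain libraries. ADCY2, an adenylate cyclase, was at 21.3, 14.6 and 41.3 CPM against 5.21, 3.19 and 8.05 CPM (log2 fold change 1.98 ± 0.42 SE, adjusted p = 0.0037). ADCY5, another cyclase, was higher by 1.48 (adjusted p = 0.017), a call lost without the pineal library of goat 73 or the colliculus library of goat 54 (adjusted p = 0.061 to 0.087). ADRA2A, the alpha-2A adrenergic receptor that lowers cyclic AMP, was at 0.474, 0.745 and 0 CPM against 10.2, 11.0 and 20.1 CPM (log2 fold change -5.25 ± 0.64 SE, adjusted p = 3.9e-05). ADCY8, a cyclase stimulated by calcium, was at 1.90, 2.48 and 3.08 CPM against 13.6, 7.17 and 18.3 CPM (log2 fold change -2.62). The anchoring protein AKAP12 was lower, with a log2 fold change of -1.82. The PACAP receptor ADCYAP1R1 and the phosphodiesterase PDE4D had log2 fold changes of -1.30 and -1.94. Either call was lost with 5 of the 6 libraries left out in turn, all but the colliculus library of goat 64 for ADCYAP1R1 and all but the pineal library of goat 54 for PDE4D (adjusted p = 0.058 to 0.20 and 0.068 to 0.23). Without any 1 of 4 libraries, the pineal ones of goats 64 and 73 or the colliculus ones of goats 54 and 73, 3 genes of the list were lower in place of 5.

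No circadian clock gene was called by edgeR or by DESeq2, among 14 tested of 21 measured, and their median was -0.22. At an unadjusted p under 0.05, 1 of the 14 was lower. That gene was NR1D1, a repressor of the clock loop, at 50.8, 30.3 and 36.5 CPM against 51.5, 41.2 and 56.4 CPM (log2 fold change -0.59, adjusted p = 0.066). With the goat as a block NR1D1 was called lower (-0.61, adjusted p = 0.028), and without the pineal library of goat 54 the list also had 1 member called lower. PER3 was at 28.2, 19.6 and 24.4 CPM against 23.8, 19.3 and 27.0 CPM and CLOCK at 17.8, 16.4 and 14.7 CPM against 9.80, 16.9 and 13.7 CPM, with overlapping groups. The core activator ARNTL (adjusted p = 0.30), PER1 (0.41), CRY1 (0.86) and CRY2 (0.79) were not called either. The melatonin receptor MTNR1A had no count in the pineal gland, and MTNR1B was at 0, 0.745 and 0 CPM. These values do not show that clock genes were equal in both tissues, and the hour of sampling is not in the labels.

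Called genes of the secretory granule were both higher and lower. The counts of this list and of those below it stand beside 10.7% higher and 10.3% lower over all features. SCG2, a granin, was at 86.1, 52.1 and 137 CPM against 27.1, 18.7 and 33.0 CPM (log2 fold change 1.56 ± 0.30 SE, adjusted p = 0.0018), and VGF, a granule protein, at 19.2, 25.8 and 28.2 CPM against 6.05, 4.78 and 12.3 CPM (log2 fold change 1.41 ± 0.35 SE, adjusted p = 0.0099). The VGF call was lost without the colliculus library of goat 54 (adjusted p = 0.054). CHGA, chromogranin A, was at 5.22, 6.70 and 5.93 CPM against 18.4, 12.9 and 29.0 CPM (log2 fold change -2.0 ± 0.34 SE, adjusted p = 0.00077), and PAM, which amidates peptides, at 5.93, 2.98 and 3.32 CPM against 15, 14.7 and 29.2 CPM (log2 fold change -2.51 ± 0.40 SE, adjusted p = 0.00040). PTPRN and PTPRN2, membrane proteins of the granule, were also lower (-2.03 and -1.35), which makes 2 higher and 4 lower of 14 (median 0.09). The share higher was near that of all features. The PTPRN call was lost without any library but the pineal one of goat 73 (adjusted p = 0.083 to 0.13). In the methyl donor cycle, which supplies ASMT with its methyl group, 1 of 9 tested genes was higher, a share near the 10.7% of all features. It was AHCYL2 (log2 fold change 1.39, adjusted p = 0.013). The AHCYL2 call was lost without the pineal library of goat 54 or 73 (adjusted p = 0.065 to 0.067). Of 3 nicotinic and dopamine receptor genes tested, DRD4, a dopamine receptor, was lower (-2.45), a call lost without the pineal library of goat 64 or the colliculus library of goat 54 (adjusted p = 0.066 to 0.18). Of 5 thyroid hormone genes, THRA, a thyroid hormone receptor, was lower (-1.14, adjusted p = 0.050). The THRA call was lost with the goat as a block (adjusted p = 0.061), by DESeq2 and without any library but the colliculus one of goat 73 (adjusted p = 0.089 to 0.16).

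**Figure D2:**
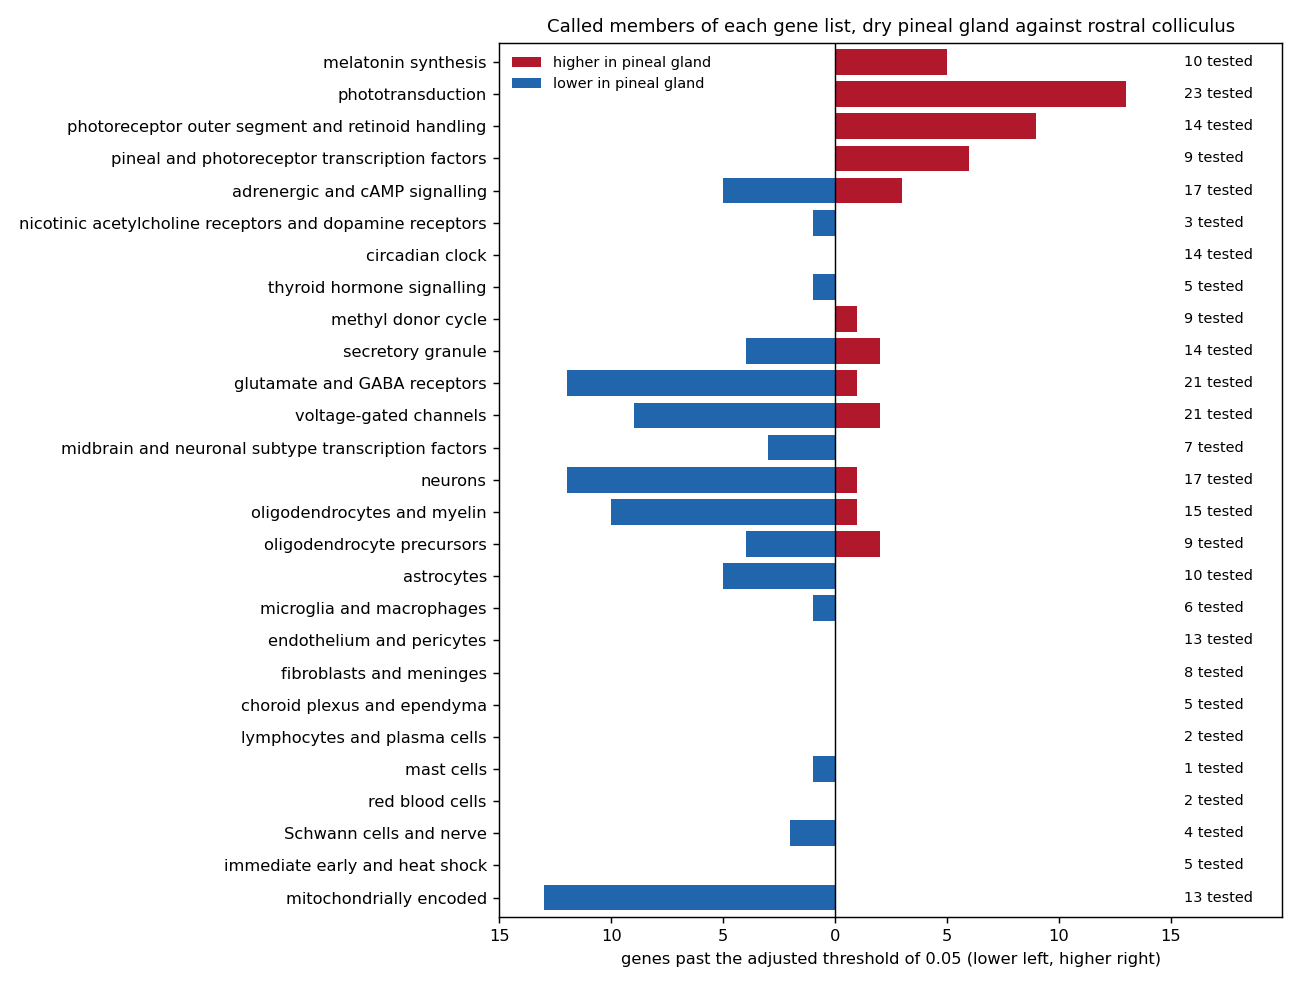
Number of members of each gene list past the adjusted threshold of 0.05 in dry pineal gland against rostral colliculus, higher to the right and lower to the left, with the number tested at the right edge. The 4 pineal and photoreceptor lists have 5, 13, 9 and 6 features higher and none lower, and the mitochondrially encoded list has 13 of 13 lower.

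Among the 12 protein-coding genes with the largest increases, several belong to none of the lists. CRTAM, a membrane protein of activated cytotoxic lymphocytes, was measured at 307, 239.5 and 264 CPM in the pineal gland and 0 in every colliculus library, at least 1332-fold higher (adjusted p = 3.9e-10). Of 12 lymphocyte and plasma cell markers, 2 were tested, and none was called by edgeR, by DESeq2 or at an unadjusted p under 0.05. Their summed level ran from 16.4 to 21.1 CPM in the pineal gland and 9.06 to 20.9 CPM in the colliculus. CD3D, a T cell receptor chain, was at 12.6, 9.43 and 8.54 CPM against 4.80, 10.4 and 3.62 CPM, while CD3E and CD79A had no count in the pineal gland. C15H11orf63 was at 631, 565 and 576 CPM against 1.25, 1.59 and 0.201 CPM (log2 fold change 8.89 ± 0.27 SE, adjusted p = 8.6e-11), and it overlaps another annotated gene. LRTM2 was at 344, 293 and 313 CPM against 0.209, 1.99 and 1.21 CPM (log2 fold change 7.82 ± 0.31 SE, adjusted p = 6.9e-10), and it overlaps CACNA2D4, an auxiliary subunit of retinal calcium channels, which was itself higher (log2 fold change 5.09). ZNF593, a zinc finger gene, was at 118, 75.7 and 110.3 CPM against 0.209, 0 and 0.604 CPM (log2 fold change 8.17 ± 0.42 SE, adjusted p = 9.0e-09). The uncharacterised loci LOC102174020 and LOC102177244 complete the 12 with ISL2, NEUROD1, ASMT, GABRA5, GABRD and GIF.

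Subunits of the GABA-A receptor were on both sides. GABRA5, an alpha subunit, was measured at 285, 250.4 and 217 CPM in the pineal libraries of goats 54, 64 and 73 and 0.417, 0.797 and 0.805 CPM in the colliculus (log2 fold change 8.23 ± 0.24 SE, adjusted p = 8.2e-11). It did not pass 9.17 CPM in the 21 other brain libraries. GABRD, the delta subunit, stood at 13.5, 11.4 and 9.49 CPM against 0, at least 56.5-fold higher (adjusted p = 3.2e-05). The dry cerebellar hemisphere held 13.9 ± 4.06 CPM of GABRD and the pineal gland 11.5 ± 2.02 CPM (SD, n = 3 each), with overlapping values. GABRB2 was at 0.712, 0.496 and 1.42 CPM against 15.4, 10.2 and 26.2 CPM (log2 fold change -4.49 ± 0.52 SE, adjusted p = 2.5e-05). GIF, gastric intrinsic factor, was at 5.93, 7.69 and 10.7 CPM against 0, at least 39.9-fold higher (adjusted p = 0.00016), and stood at 64.5 ± 13.7 CPM in the dry abomasum (SD, n = 3).

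Genes of inhibitory neurons and of synapses were among the 12 largest decreases. GAD1, which makes GABA, was at 0, 1.24 and 0 CPM against 33.6, 15.1 and 42.3 CPM (log2 fold change -6.38 ± 0.68 SE, adjusted p = 1.1e-05), and SLC32A1, which loads GABA into vesicles, at 0, 0.248 and 0 CPM against 9.38, 6.77 and 9.87 CPM (log2 fold change -6.55 ± 0.80 SE, adjusted p = 3.9e-05). The complexins CPLX1 and CPLX2, which control vesicle fusion, were lower by log2 fold changes of -6.03 ± 0.89 and -5.41 ± 0.39 (SE, adjusted p = 0.00022 and 2.4e-07). HIPK4, a protein kinase, was lower, from 489, 279 and 563 CPM in the colliculus to 1.42, 5.96 and 1.19 CPM in the pineal gland (log2 fold change -7.53 ± 0.40 SE, adjusted p = 1.1e-08). DPP10, a partner of potassium channels, had no pineal count against 8.13, 2.59 and 6.44 CPM, at least 23.8-fold lower (adjusted p = 0.00050). RTL1, an imprinted gene derived from a retrotransposon, was at 0, 1.99 and 1.42 CPM against 81.7, 53.4 and 86.4 CPM (log2 fold change -6.25 ± 0.44 SE, adjusted p = 2.0e-07). RND2, a small GTPase of neurons, was at 0, 0 and 0.474 CPM against 9.38, 2.59 and 11.5 CPM (log2 fold change -5.60 ± 0.94 SE, adjusted p = 0.00063), and 4 uncharacterised loci complete the 12.

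Markers of neurons were lower in the pineal gland in 12 of 17 tested genes and higher in 1, with a median of -2.11. Over all features tested, 10.3% were lower and 10.7% higher. The summed level of the 19 markers ran from 135 to 182 CPM in the pineal gland and 269 to 536 CPM in the colliculus. SNAP25, a synaptic fusion protein, was at 16.6, 11.4 and 13.3 CPM against 65.3, 28.5 and 94.8 CPM (log2 fold change -2.43 ± 0.34 SE, adjusted p = 0.00015), and NEFL, a neurofilament chain, at 21.6, 23.1 and 9.49 CPM against 71.5, 39.4 and 86.0 CPM (log2 fold change -2.11 ± 0.32 SE, adjusted p = 0.00026). In bulk tissue, fewer cells of a type and less RNA per cell cannot be told apart. GAD2, the other GABA-making enzyme, was lower by a smaller step, 28.7, 33.8 and 27.8 CPM against 53.2, 41.6 and 68.1 CPM (log2 fold change -1.10 ± 0.20 SE, adjusted p = 0.0012). SLC17A7, a vesicular glutamate transporter, was the exception, at 16.1, 6.45 and 15.9 CPM against 0, 0.996 and 0 CPM (log2 fold change 4.89 ± 0.83 SE, adjusted p = 0.00067). The colliculus library of goat 64 was the lowest of its group for many of these genes, SNAP25, GAD1 and the receptors GRIN1 and GRIA2 among them. Without that library 12 neuronal markers were lower, as with it, and the lowest count with 1 library left out was 8, without the colliculus library of goat 73.

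Most called receptor and channel genes of neurons were lower too. Of 21 tested glutamate and GABA receptor genes, 12 were lower and 1 higher (median -2.02), beside 10.3% and 10.7% of all features. GRIN1, the obligatory NMDA receptor subunit, was at 3.56, 1.99 and 1.42 CPM against 27.9, 14.9 and 48.9 CPM (log2 fold change -3.94 ± 0.46 SE, adjusted p = 2.8e-05). GRM3, a metabotropic receptor, was at 0.712, 0.993 and 0 CPM against 11.7, 11.8 and 16.7 CPM (log2 fold change -4.75), and GRIA2, an AMPA receptor subunit, at 1.19, 3.97 and 0.474 CPM against 27.7, 7.77 and 29.8 CPM (log2 fold change -3.77). The kainate receptor gene GRIK3 was the one that rose, at 65.0, 75.9 and 78.3 CPM against 10.8, 5.38 and 2.01 CPM (log2 fold change 3.34 ± 0.37 SE, adjusted p = 1.7e-05). Of 21 tested voltage-gated channel genes, 9 were lower and 2 higher (median -1.54), the latter a share near the 10.7% of all features. SCN3A, KCNC2 and KCND2 were among the decreases, with log2 fold changes of -4.36, -4.02 and -3.87. CACNA1F, the calcium channel of photoreceptor synapses, was at 10.7, 10.9 and 11.4 CPM against 0.626, 2.19 and 0.201 CPM (log2 fold change 3.14 ± 0.62 SE, adjusted p = 0.0022).

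Myelin genes were lower in 10 and higher in 1 of 15 tested markers, with a median of -2.39. These counts, and those of precursors and astrocytes below, stand beside 10.3% lower and 10.7% higher over all features. MBP, myelin basic protein, was at 9.96, 11.9 and 24.0 CPM against 140.1, 154 and 159 CPM (log2 fold change -3.56 ± 0.26 SE, adjusted p = 3.1e-07). The summed level of 17 markers ran from 70.7 to 114 CPM in the pineal gland and 369.9 to 485 CPM in the colliculus. Of 9 markers of oligodendrocyte precursors, 4 were lower, OLIG1, OLIG2, PDGFRA and BCAN (-2.54, -3.0, -2.27 and -1.20). PCDH15 and LHFPL3 were higher, and all 6 calls depended on single libraries: none of the 4 was left without the pineal library of goat 64, and neither of the 2 without that of goat 54. Astrocyte markers were lower in 5 of 10 and higher in none. GLUL, glutamine synthetase, was at 9.01, 3.97 and 13 CPM against 70.5, 52.4 and 91.4 CPM (log2 fold change -3.28 ± 0.33 SE, adjusted p = 6.7e-06), and SLC1A3, a glutamate transporter, at 3.32, 0.745 and 5.46 CPM against 29.8, 15.1 and 42.7 CPM (log2 fold change -3.42). GFAP, the astrocyte filament protein, was at 65.5, 71.2 and 89.9 CPM against 110.1, 55.8 and 106 CPM and AQP4, the astrocyte water channel, at 33.2, 24.8 and 31.1 CPM against 36.9, 26.1 and 34.4 CPM, and neither was called (adjusted p = 0.12 and 0.24).

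Few markers of non-neural cells were called. The counts of the lists given here stand beside 10.7% higher and 10.3% lower over all features. Neither edgeR nor DESeq2 called a marker among 13 of endothelium and pericytes (median -0.29), 8 of fibroblasts and meninges (0.10), 5 of choroid plexus and ependyma (0.69), 2 of red blood cells and 5 of the immediate early and heat shock genes (-0.67), which respond to handling. At an unadjusted p under 0.05, 1 endothelial marker (ABCC9) and 1 heat shock gene (HSPA8) were lower and TTR was higher. HSPA8 was called lower with the goat as a block (-0.79, adjusted p = 0.0017), without a filter (-0.80, adjusted p = 0.00021) and without the colliculus library of goat 64 (-1.12, adjusted p = 0.0072). Without that library RGS5, a pericyte gene, was called lower too (-1.17, adjusted p = 0.041), and without the pineal library of goat 73 the smooth muscle gene MYH11 was called higher (0.68, adjusted p = 0.012). The summed level of the endothelial markers ran from 167 to 227 CPM in the pineal gland and 159.6 to 189 CPM in the colliculus. TTR, the defining choroid plexus gene, was at 12.1, 10.2 and 2.13 CPM against 2.09, 2.59 and 2.21 CPM (log2 fold change 1.55, adjusted p = 0.086). It was called higher without the pineal library of goat 73 (2.02, adjusted p = 0.012) and without a filter (1.58, adjusted p = 0.035). Of 6 microglia and macrophage markers, P2RY12, a receptor of resting microglia, was lower at 4.74, 10.9 and 7.59 CPM against 20.9, 15.5 and 22.4 CPM (log2 fold change -1.59 ± 0.33 SE, adjusted p = 0.0031), and CSF1R was at 25.6, 36.5 and 26.8 CPM against 23.1, 19.7 and 19.1 CPM without a call. KIT, on the mast cell list but also a gene of brain neurons, was lower (log2 fold change -3.37), and the mast cell protease CPA3 had no pineal count. Of 4 Schwann cell and nerve genes, SCN7A and NCAM1 were lower (-3.33 and -1.35). Of the transcription factors of midbrain neurons, 3 of 7 tested were lower: MEIS2 (-3.63, adjusted p = 0.0024), TAL1 (-3.18, adjusted p = 0.019) and TFAP2B (-2.82, adjusted p = 0.022). The TAL1 call was lost without the pineal library of goat 64 or 73 or the colliculus library of goat 54 or 73 (adjusted p = 0.056 to 0.10), and that of TFAP2B without any library but the pineal one of goat 54 (adjusted p = 0.059 to 0.077).

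**Figure D3:**
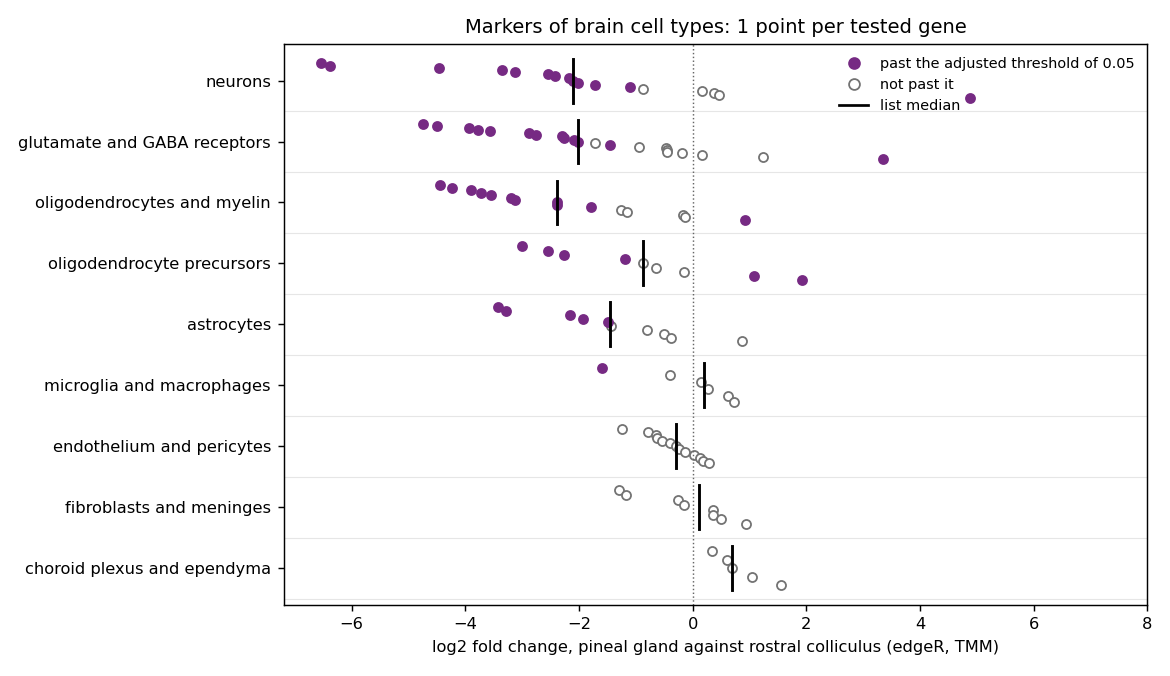
Log2 fold change between dry pineal gland and rostral colliculus for each tested marker of brain cell types and each glutamate or GABA receptor gene, filled where past the adjusted threshold, with a black bar at the list median. Medians of neurons, receptors, myelin and astrocytes lie between -2.39 and -1.46, and those of microglia, endothelium, fibroblasts and choroid plexus between -0.29 and 0.69.

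All 13 protein genes of the mitochondrial genome were lower in the pineal gland, each without overlap between the groups, as were 17.9% of all features tested. Their summed level ran from 1199 to 1399.5 CPM in the pineal gland and 4615 to 6610.0 CPM in the colliculus, and the median log2 fold change was -2.40. COX1, a subunit of cytochrome oxidase, was at 324, 298 and 309 CPM against 1404, 1270.0 and 1642 CPM (log2 fold change -2.47 ± 0.11 SE, adjusted p = 2.2e-09), and CYTB, of complex III, at 166, 240.2 and 176 CPM against 969, 1277 and 1086 CPM (log2 fold change -2.78 ± 0.16 SE, adjusted p = 2.3e-08). The smallest difference was that of ND3, a complex I subunit (log2 fold change -1.80 ± 0.31 SE, adjusted p = 0.00080). Against the 7 other brain regions all 13 were lower too (median -2.06). All 13 were also called lower with DESeq2 size factors, scaling over coding genes alone or the deposited offsets, and without each library in turn. Markers of neurons, whose cells are rich in mitochondria, were lower in the same libraries, and their part in the mitochondrial difference was not tested. The 4 annotated lncRNA features of the mitochondrial genome, 3 antisense and 1 overlapping, were lower as well, such as ND4-AS1 at 3776, 3773 and 3909.5 CPM against 16263, 22935 and 18892 CPM (log2 fold change -2.60 ± 0.12 SE, adjusted p = 4.0e-09). Whether reads were assigned by strand is not stated in the labels, so a gene and its antisense partner cannot be told apart with certainty.

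**Figure D4:**
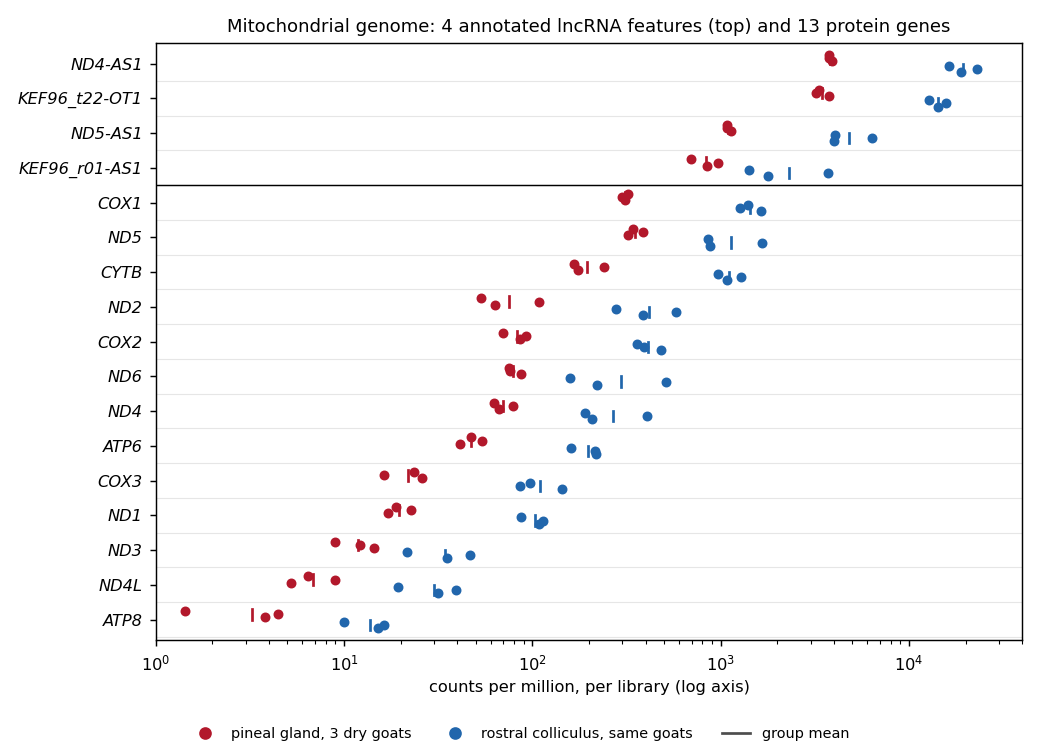
CPM in each library (log axis) for the 13 protein genes of the mitochondrial genome and, above the line, its 4 annotated lncRNA features, with 1 point per goat and tissue and a bar at each group mean. The pineal points of every gene lie to the left of its colliculus points, for COX1 at 324, 298 and 309 against 1404, 1270.0 and 1642 CPM.

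Annotated long noncoding RNAs (lncRNAs) held 85.2% to 85.6% of the counts in the pineal libraries and 87.0% to 88.9% in the colliculus libraries. Of 8748 tested, 1022 were higher (11.7%) and 943 lower (10.8%). Antisense features had the highest share of calls of the classes in the annotation, 346 higher and 348 lower of 1969 (35.2%), and intronic ones the lowest, 143 and 84 of 2268 (10%). Use of strand in counting is not given, so an antisense feature and the gene it is named for cannot be told apart with certainty. PDC-AS1, antisense to phosducin, was measured at 2629, 3289 and 2625 CPM in the pineal libraries of goats 54, 64 and 73 and 0.417, 1.20 and 0 CPM in the colliculus (log2 fold change 12.04 ± 0.32 SE, adjusted p = 2.7e-11), and it did not pass 2.84 CPM in the other brain libraries. NEUROD4-AS1, antisense to the proneural factor NEUROD4, was measured at 1703, 1748 and 1874 CPM in the pineal libraries of goats 54, 64 and 73 and 0.417, 0.598 and 0.805 CPM in the colliculus (log2 fold change 11.20 ± 0.18 SE, adjusted p = 9.8e-14). The dry adenohypophysis held 406 ± 141 CPM of NEUROD4-AS1 (SD, n = 3). NEUROD4 itself had too few counts for a test. LOC102173632-OT1 was at 155, 227 and 171 CPM against 0.626, 0.199 and 0 CPM (log2 fold change 9.03 ± 0.36 SE, adjusted p = 8.4e-10), while the intergenic LINC18588 was at 16.1, 13.7 and 21.6 CPM against 0, at least 84.4-fold higher. In the other direction SOX14-AS1, antisense to a factor of midbrain inhibitory neurons, had no pineal count against 63.4, 45.4 and 48.9 CPM, at least 218-fold lower (adjusted p = 2.7e-08). KCNC2-AS1, antisense to a potassium channel gene, was at 0.237, 3.97 and 0.949 CPM against 149, 175 and 199 CPM (log2 fold change -6.92 ± 0.40 SE, adjusted p = 3.0e-08). KCNC2 itself was lower by a smaller log2 fold change of -4.02. RPP25-AS1 was at 0, 0.248 and 0 CPM against 23.6, 8.96 and 13.7 CPM (log2 fold change -7.36 ± 0.75 SE, adjusted p = 7.6e-06).

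Of 58 lncRNA features named for a gene of the melatonin, phototransduction, transcription factor or clock lists, 26 were tested, 7 were higher and none was lower. Over all lncRNA features tested, 11.7% were higher and 10.8% lower. A feature with few colliculus counts could pass the filter only through its pineal counts, and the limit on strand holds here too. Beside the 2 above, GUCA1A-AS1 was at 386, 309.7 and 367 CPM against 2.50, 3.19 and 0.805 CPM (log2 fold change 7.08 ± 0.27 SE, adjusted p = 5.7e-10) and NRL-AS1 at 171, 180.2 and 175 CPM against 1.46, 3.98 and 2.62 CPM (log2 fold change 5.75 ± 0.26 SE, adjusted p = 2.3e-09). GNGT2-AS1 was higher by 1.77 and the intronic BSX-IT1 by 5.0, each without overlap between the groups. RORA-AS1 was at 5300.0, 4569 and 4834 CPM against 1661, 1439.7 and 1568 CPM (log2 fold change 1.40 ± 0.09 SE, adjusted p = 4.3e-08), while RORA itself, a nuclear receptor of the clock loop, was at 3.80, 1.49 and 4.98 CPM against 3.96, 1.20 and 4.03 CPM with no call (adjusted p = 0.96). CNGB3-IT1, RGS9-AS1 and GNB1-IT1, which lie within or across called genes, were not called.

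**Figure D5:**
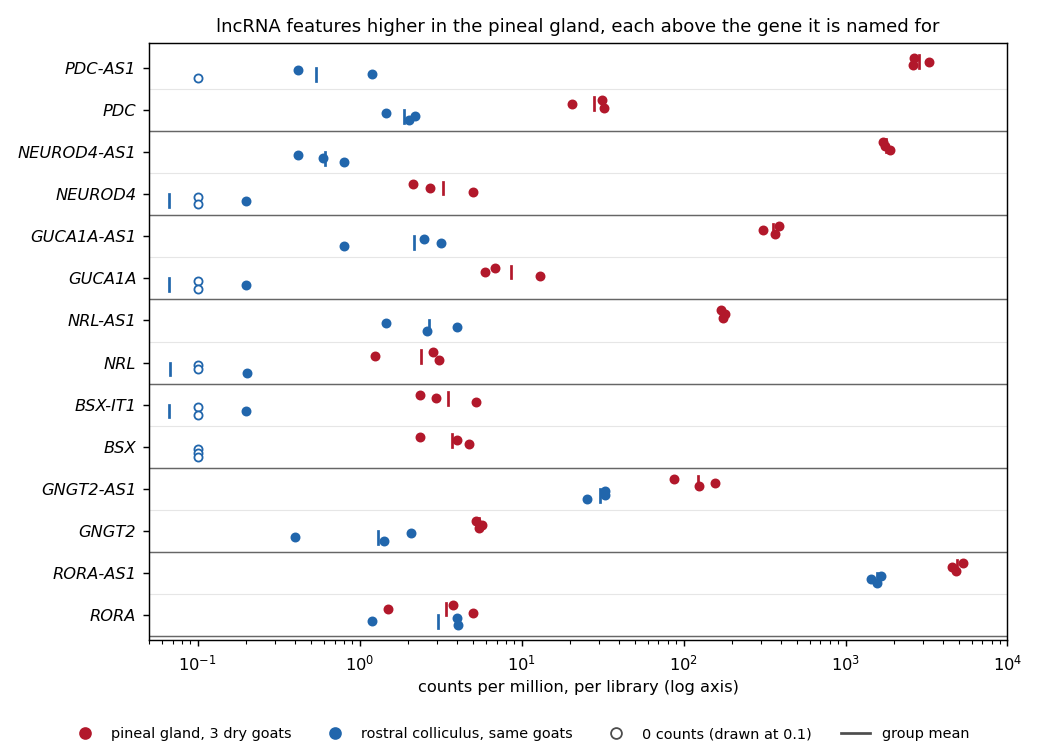
CPM in each library (log axis) of the 7 called lncRNA features, each above the gene it is named for, with 1 point per goat and tissue, a bar at each group mean and libraries without counts drawn open at 0.1. For PDC-AS1 the pineal libraries stand at 2629, 3289 and 2625 CPM and the colliculus libraries at 0.417, 1.20 and 0 CPM, while the RORA points of both tissues overlap. Levels of different features are not comparable.

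Against the mean of the 7 other dry brain regions the same lists stood as follows, with the pineal libraries shared between both comparisons. Over all features tested there, 12.5% were higher and 10.7% lower. The limit that the filter sets on the pineal and photoreceptor lists holds here too, and TPH1 is again among their members. The 4 pineal and photoreceptor lists had 6 of 10, 17 of 26, 11 of 20 and 8 of 15 tested members higher, and 1 transcription factor, BHLHE22, was lower. Neuronal markers were lower in 13 of 19 and higher in 2, and glutamate and GABA receptor genes lower in 17 of 27 and higher in 2. Myelin markers were lower in 10 of 16 and astrocyte markers in 5 of 12, with none higher. Clock genes had 1 higher and 2 lower of 17, and choroid plexus markers 2 higher of 6. Midbrain transcription factors, lower in 3 of 7 against the colliculus, had 1 higher (LHX5) and none lower of 9 here.

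The pineal libraries of the lactating goats did not show these differences. Set against the 3 colliculus libraries of the same goats, 19 of 17990 features were called (0.106%), and of the 33 features above 8 could be tested and none was called by edgeR. ADRB1, for example, was at 2.61, 3.76 and 2.72 CPM in them and 2.68, 0.198 and 1.20 CPM in the colliculus of the same goats. GUCA1B was at 2.41, 12.7 and 2.51 CPM against 3.25, 5.14 and 4.40 CPM. Their neuronal markers summed to 59.1 to 318 CPM, and those of myelin to 53.6 to 221 CPM. With these libraries included, 6 against 6, 301 features were called in place of 3941.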

How the data were processed

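The deposited table of estimated counts per gene covers 39734 features in 198 libraries, of which 16460 are annotated lncRNAs and 20572 protein-coding genes. Of the values, 36.9% are not whole, and all were rounded. Per the labels' protocols, RNA was extracted with the RiboPure kit and libraries were strand-specific (VAHTS Universal V8). STAR, StringTie and edgeR are listed, without versions, per the submitters' processing notes. The genome build and the use of strand in counting are not given in the sources used here. The authors' deposited offsets, on a natural log scale per gene and library, were used in 1 alternative only. Overlaps between genes were found from RefSeq gene positions, on either strand. The deposited annotation gave the lncRNA features, their classes and which of them lie on the mitochondrial genome. The positions of its lncRNA features were not used to find overlaps. Deposited CPM and tissue specificity tables were not used. All 23274 features other than lncRNAs matched RefSeq names (ARS1.2), and 13 locus tags were renamed from it. AANAT was matched to both features of that name.

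Libraries were grouped by their labels into tissue and state, with the goat as replicate. Total counts ran from 1.31 to 8.97 M over the series, and intervals and floors cover counting error only. CPM uses the total of all features. edgeR 4.0.16 in R 4.3.3 (TMM, filterByExpr with a minimum count of 10, quasi-likelihood F-test, Benjamini-Hochberg, adjusted p under 0.05) compared 3 pineal with 3 colliculus libraries, and separately 3 pineal with 21 libraries of 7 regions. The scripts were tested on simulated data. Groups count as not overlapping on TMM-scaled CPM. A group without counts was given a floor of 3 counts over the group. Each tissue has 1 library per goat, so the p values measure the spread between goats together with that of sampling. Pineal and colliculus libraries come from the same goats: their deviations from the group means correlated at 0.0918, 0.169 and 0.141 for the same goat and at -0.123 to -0.0138 for different goats, across genes. The goat as a block is given as an alternative, beside DESeq2 1.42.0, other scalings, no filter, other sets of libraries and each library left out.

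The members and gene lists were chosen with earlier results of these data known. Genes were named by a rule: the 12 coding genes and 5 lncRNAs with the largest change each way (called, not overlapping, at least 5 CPM), up to 4 called members per list, every member of the melatonin, phototransduction, transcription factor and clock lists, 3 markers per cell type, and lncRNAs named for members. The following were named after their values were seen: ADCY5, ADCYAP1R1, AKAP12, PDE4D, ABCC9, HSPA8, CACNA1F, GRIK3, VGF, PTPRN2, CDHR1, PRPH2, STRA6, UNC119, RPE65, LRAT, RLBP1, COX1, ND3, the mitochondrial lncRNAs, CACNA2D4, CD3E, CD79A, CPA3, MYH11, RGS5, THRA and genes adjacent to named ones. Some named features are not reported here. Set tests were not used. Promoter and protein sequences were not used here.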

Additional observations from a re-analysis of the deposited data

Results flagged for a closer look

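The difference between pineal gland and rostral colliculus itself differed between dry and lactating goats for 937 of 21415 features (4.38%), by an interaction test in edgeR with Benjamini-Hochberg adjustment over 12 libraries. Of the 33 called members of the pineal and photoreceptor lists, 6 were among them. For TPH1, the first enzyme of melatonin synthesis, the dry difference exceeded the lactation difference by 7.80 on the log2 scale (SE 1.94, adjusted p = 0.034), with TPH1 at 125, 57.1 and 100.1 CPM in the dry and 0, 0 and 0.419 CPM in the lactation pineal libraries. For GUCA1B, the cyclase activator, it was 7.04 (adjusted p = 0.00012), with 686, 419.9 and 519 CPM and 2.41, 12.7 and 2.51 CPM. For NEUROG1 it was 6.24 (adjusted p = 0.0040), with 90.4, 124 and 104 CPM and 1.61, 1.25 and 0.210 CPM. For ADRB1, the adrenergic receptor, it was 5.65 (adjusted p = 0.0022), with 126, 128 and 137 CPM and 2.61, 3.76 and 2.72 CPM. All 3 dry libraries lay above all 3 lactation libraries for each of these 4 genes. The lactation libraries had been left out because of such values, so these differences describe them and test nothing further. State and tissue identity cannot be told apart here.

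TTR, the carrier protein that choroid plexus makes in bulk, stood at 1369 CPM in the lactation pineal library of goat 3, a library that enters no comparison of the main results. It stood at 0.402 and 0.210 CPM in the lactation pineal libraries of goats 2 and 6, at 12.1, 10.2 and 2.13 CPM in the dry pineal libraries and at 2.09, 2.59 and 2.21 CPM in the dry colliculus libraries.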

How the results depend on the processing

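The count of features called against the colliculus, 3941 (2012 higher, 1929 lower), was 3946 with DESeq2 size factors, 4071 with the DESeq2 Wald test, 4553 without a filter and 3979 with the deposited offsets. Over protein-coding features only it was 2021 (1056 higher, 965 lower) of 9809 tested, fewer features by construction. With the spread taken from all 99 dry libraries it was 1905 (989 higher, 916 lower), and with the lactation libraries included, 6 against 6, it was 301 (135 higher, 166 lower); the cause of either drop was not tested. Leaving out 1 library gave 3033 to 3925 (1589 to 2004 higher, 1415 to 1921 lower). Against the 7 other regions, protein-coding features only gave 2959 (1687 higher, 1272 lower) of 13153 in place of 5490, and leaving out 1 library gave 3814 to 5957 (2095 to 3200 higher, 1719 to 2757 lower). CAMK2A reversed to a log2 fold change of 0.95 with the lactation libraries included (adjusted p = 0.70).

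With the goat as a block, which pairs both tissues of an animal, 4348 features were called against the colliculus and 5535 against the 7 regions. The block changed the calls of 9 list members, of which NR1D1, PRDM1, THRA and HSPA8 are given above. Of 114 features named by the rule and called, 98 were called without each library in turn, 113 by DESeq2, 82 in the fit over 99 dry libraries, 14 with the lactation libraries and 39 under all 14 alternatives. At totals of 4.03 to 5.02 M counts, genes under about 1 CPM, most opsins among them, could not be compared. A search of promoters for motifs was not run.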

Other observations

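Several genes with large pineal increases lie next to each other in the RefSeq annotation, a pattern chosen after the values were seen. Of the 12 coding genes with the largest increases, 11 have a place in the annotation, and 10 of these (90.9%) have an adjacent tested gene that was also called higher. Over every tested gene with a place, 1913 of 10186 (18.8%) have an adjacent gene called higher. Of the 12 largest decreases, 4 of 11 (36.4%) have an adjacent gene called lower, beside 1817 of 10186 (17.8%). These counts are a description, since overlapping or neighbouring genes can share reads and the labels do not state whether reads were assigned by strand.

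One run holds BSX, C15H11orf63, CRTAM and UBASH3B. BSX, a homeobox factor, had 2.37, 3.97 and 4.74 CPM in the pineal gland and none in the colliculus. UBASH3B, a phosphatase of signalling in blood cells, stood at 427, 367 and 339 CPM against 3.75, 4.98 and 5.24 CPM (log2 fold change 6.08 ± 0.18 SE, adjusted p = 8.2e-11). All 4 were higher without overlap between the groups, while lymphocyte markers were not called. Another run holds NEUROG1, CXCL14 and IL9. CXCL14, a chemokine, was at 172, 182 and 155 CPM against 3.96, 4.38 and 11.5 CPM (log2 fold change 4.42 ± 0.30 SE, adjusted p = 1.4e-07), and IL9, an interleukin, at 131, 160.3 and 167 CPM against 0.834, 3.39 and 2.01 CPM (log2 fold change 5.91 ± 0.31 SE, adjusted p = 9.6e-09). NEUROG1 is the proneural gene of this run. SCAPER, next to ISL2, was at 203, 115 and 195 CPM against 4.80, 4.98 and 8.46 CPM (log2 fold change 4.56 ± 0.28 SE, adjusted p = 4.5e-08), and its other neighbour LOC108638468 was higher as well. TRERF1 lies beside GUCA1B and GUCA1A and was higher by a log2 fold change of 3.11 (adjusted p = 0.0074). CERKL, a retinal dystrophy gene next to NEUROD1, was at 5.93, 7.45 and 7.83 CPM against 1.04, 1.59 and 1.41 CPM (log2 fold change 2.11 ± 0.53 SE, adjusted p = 0.011). Both tested neighbours of ADRB1, CCDC186 and NHLRC2, were higher, at 28.2, 16.1 and 21.8 CPM against 7.92, 2.79 and 5.64 CPM and 40.8, 36.7 and 15.9 CPM against 3.54, 0.797 and 4.03 CPM.

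On the side of the decreases, RTL1 and its neighbours LOC108638502 and LOC102168946 were lower together, by log2 fold changes of -6.25, -4.81 and -2.11. SCN3A and SCN2A, adjacent genes of neuronal sodium channels, were both lower (-4.36 and -3.11). PLD3, next to the kinase gene HIPK4, was lower at 1.90, 3.23 and 3.56 CPM against 22.5, 10.8 and 36.0 CPM (log2 fold change -3.23 ± 0.45 SE, adjusted p = 0.00012). GLRB, the glycine receptor beta subunit next to GRIA2, was at 0, 0.993 and 0.237 CPM against 7.72, 2.59 and 12.3 CPM (log2 fold change -4.37 ± 0.86 SE, adjusted p = 0.0021).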
